A study of Caenorhabditis elegans with 14 samples.

Results

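The proteasome is the large protease that degrades proteins tagged with ubiquitin. Its barrel-shaped 20S core is built of stacked rings of alpha subunits (pas genes in Caenorhabditis elegans), which gate the entrance, and of beta subunits (pbs genes), some of which carry the proteolytic sites. The 19S regulatory particle caps the core: a ring of AAA ATPases (rpt genes) unfolds substrates and threads them inward, and the non-ATPase subunits (rpn genes) of the base and the lid hold the complex together, bind ubiquitin and remove it. Subunits are made in matched amounts in many eukaryotes, and in C. elegans a form of the transcription factor SKN-1 raises the transcription of subunit genes when proteasome function is impaired. Proteasome activity is also part of the animal's handling of damaged proteins during infection.

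The genes described here are all those whose symbol in the deposited gene table begins with pas, pbs, rpn or rpt followed by a number. This rule found 33 of 21982 genes, and all 33 passed the filter on low counts among 15685 genes tested. They comprise 7 alpha ring genes, 7 beta ring genes, 6 base ATPases, 4 base non-ATPase subunits (rpn-1, rpn-2, rpn-10 and rpn-13) and 9 lid genes, of which rpn-6.1 and rpn-6.2 are paralogs. The annotation places 10 of them on chromosome I, 7 on II, 8 on III, 3 on IV, 5 on V and 0 on X.

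RNA was sequenced from whole animals of a pair of genotypes on a pair of bacteria. The skpo-1 mutant, strain GF89, carries the deletion allele ok1640 of the gene for the heme peroxidase SKPO-1, and N2 is the wild-type parent. Animals at the last larval stage (L4) spent 16 h on Enterococcus faecalis OG1RF, a pathogen that colonizes the gut, or on Escherichia coli OP50, the usual laboratory food, and are labelled as adults. The 14 libraries were 4 of skpo-1 on E. faecalis, 3 of skpo-1 on E. coli, 3 of N2 on E. faecalis and 4 of N2 on E. coli. The mutant is 1 strain with 1 allele. The pathogen was grown on brain heart infusion agar with gentamycin, the medium of the food plates during the exposure is not given in the sources used here, and effects of a bacterium and of its plates cannot be told apart. Counts of skpo-1 itself were 1.62 to 2.26 CPM (counts scaled to a library total of 1000000) in the mutant on E. faecalis and 2.35 to 2.66 CPM in the mutant on E. coli, against 112 to 199 CPM in N2 on E. faecalis and 283 to 314 CPM in N2 on E. coli.

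The estimated counts of a library summed to between 15174830 and 36682565, of which 93943 to 276423 fell on the subunits. The highest total is above the coverage per sample that the paper states. Apart from rpn-6.2, whose lowest count was 271, no subunit had fewer than 1436 counts in any library, so the spread between replicates and not counting error sets the precision. A pair of libraries is carried through the results for a shift with transcript length, which was clear in the first and weak in the second. In N2 on E. coli replicate 2, genes with short transcripts (up to 882 bases) stood 1.05 log2 units above the other libraries of the group at the median and genes with long transcripts (1974 bases or more) 0.55 units below them, a median log2 difference of -0.55. In skpo-1 on E. faecalis replicate 4 the corresponding medians were 0.07 and -0.19. Other libraries had medians of similar size, such as 0.14 and -0.11 in skpo-1 on E. coli replicate 1 and -0.20 and 0.22 in its replicate 2.

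The first question was how the subunits responded to the pathogen in wild-type animals. All 33 subunit genes had a negative log2 fold change on E. faecalis relative to E. coli in N2, which held for 48.8% of all genes tested, and 30 of the 33 fell at an adjusted p below 0.05, against 14.5% of all genes that fell by the same rule. None rose, where 23.6% of all genes did. The test was edgeR's quasi-likelihood F test on the counts with Benjamini-Hochberg adjustment over all 15685 genes, and "edgeR adjusted p" refers to it throughout. The median log2 fold change of the subunits was -0.65, which is 1.57-fold lower, beside 0.03 for all genes. In bulk RNA from whole animals, fewer cells that express a gene and less RNA per cell cannot be told apart.

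The shift was modest in size and narrow in spread. The 33 log2 fold changes in N2 ranged from -1.05 for pas-2 to -0.28 for rpn-6.2, and 31 of them lay within 2 standard errors of their common median, the exceptions being pas-2 and rpt-4. These were also the only subunits at least 2-fold lower, the study's own limit for a changed gene, beside 4.1% of all genes. In 27 of 33 subunits every library on E. faecalis lay below every library on E. coli, beside 14.9% of all genes. Most genes tested were expressed at lower levels than these: among the 1671 genes at the levels of the subunits other than rpn-6.2, the median log2 fold change in N2 was -0.30 and 26.2% fell. The subunits that did not pass the test were rpn-1, rpn-2 and rpn-6.2.

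In skpo-1 mutants the subunits moved in the same direction. All 33 log2 fold changes on E. faecalis relative to E. coli were again negative, which held for 44.3% of all genes, and 20 of the 33 fell, beside 6.99% of all genes, while none rose, beside 12.9%. Their median was -0.49, or 1.40-fold lower, with a range of -0.92 for rpn-1 to -0.21 for rpn-6.2 and a median of 0.12 over all genes. No subunit reached 2-fold, beside 1.76% of all genes. In 31 of 33 subunits every library on E. faecalis lay below every library on E. coli, beside 20.1% of all genes. Genes at the levels of the subunits had a median log2 fold change of -0.43 in the mutant, close to that of the subunits, and 22.8% of them fell.

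The number of subunits called in the mutant depended on single libraries, although the direction did not. Leaving out replicate 1 of skpo-1 on E. coli left 1 call (rpn-3), and leaving out its replicate 2 left 6. Omission of replicate 1, 2 or 4 of skpo-1 on E. faecalis left 12, 4 or 11 calls. The number was 30 when replicate 2 of N2 on E. coli was omitted, a library that is in the common fit but not in this comparison. At an unadjusted p below 0.05 by edgeR's test, 29 of 33 subunits were lower in the mutant, beside 15.5% of all genes. In N2 the number called was 20 when replicate 2 on E. faecalis was omitted and 32 when replicate 2 on E. coli was, and the number at least 2-fold lower was 0 when either was omitted, 6 when replicate 1 on E. faecalis was and 5 when replicate 3 on E. coli was. With library size as the only scaling, 0 subunits in the mutant and 12 in N2 were called. The share of all genes called is not given for this scaling or for the omissions. Fewer calls there may be fewer calls over all genes, and are not a result about the subunits alone. With the replicate number as a block, 9 were called in the mutant and 24 in N2, beside 3.58% and 10.7% of all genes.

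**Figure D1:**
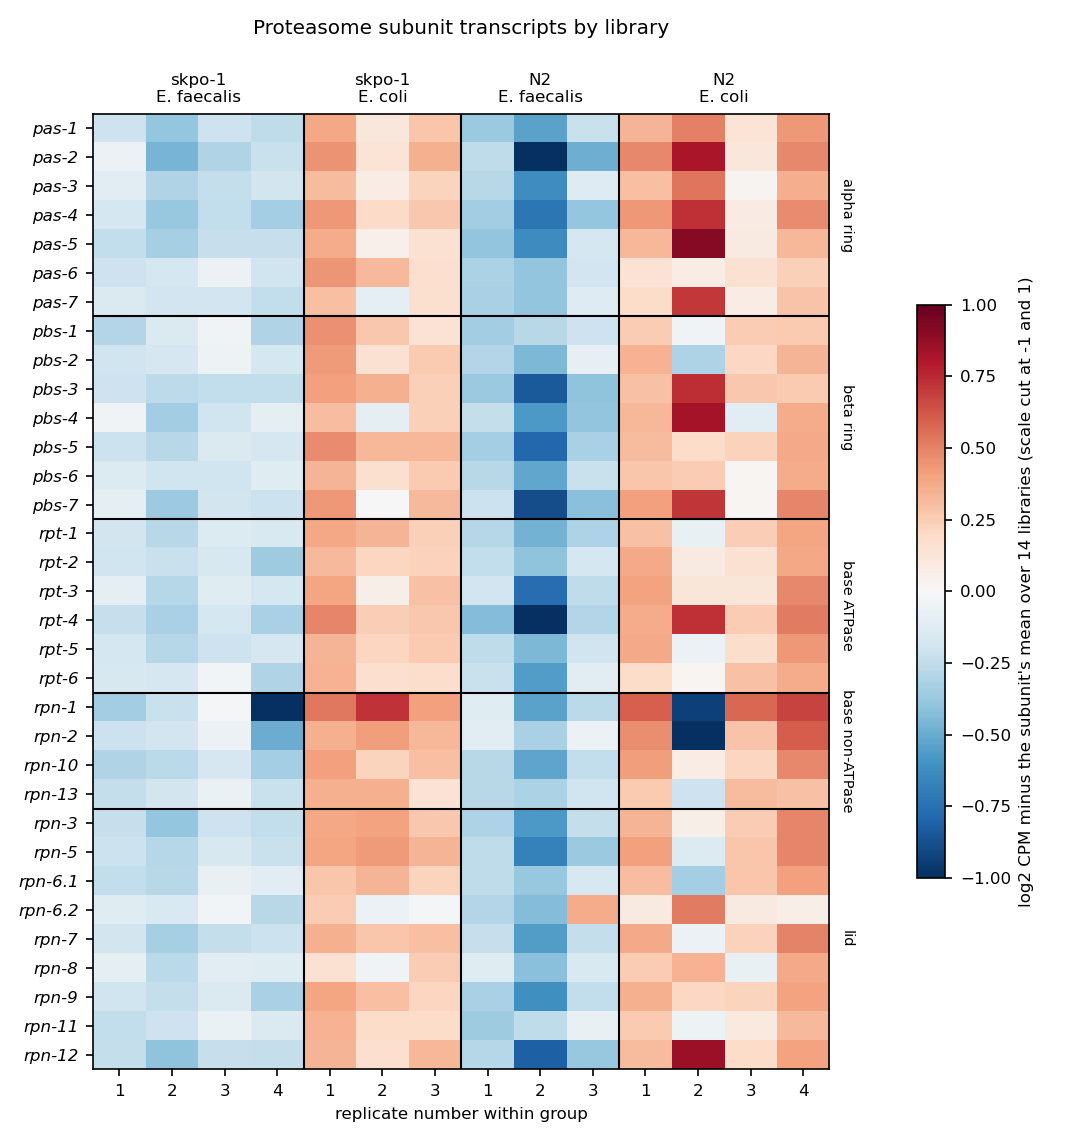
Level of each of the 33 subunits (rows, by part of the complex) in each of the 14 libraries (columns), as log2 CPM minus the subunit's mean over all libraries. Libraries on E. faecalis were mostly below the mean and libraries on E. coli mostly above it, with rpn-1 and rpn-2 low in N2 on E. coli replicate 2.

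Summed over the 33 subunits, the level was 5575 ± 254 CPM (SD, n = 4) in skpo-1 on E. faecalis against 8033 ± 390 CPM (n = 3) in skpo-1 on E. coli. In N2 it was 5147 ± 584 CPM (n = 3) on E. faecalis against 7950 ± 702 CPM (n = 4) on E. coli. The lowest library on E. coli stood at 7233 CPM and the highest on E. faecalis at 5898 CPM, so the libraries of the bacteria were separate in both genotypes. In some libraries most subunits deviated from their group the same way: N2 on E. faecalis replicate 2 was the lowest of its group for 31 of 33 subunits, and skpo-1 on E. coli replicate 1 was the highest of its group for 26. N2 on E. coli replicate 2 was mixed, the lowest of its group for 18 subunits and the highest for 12.

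Of the alpha ring, which forms the outer rings and the gate of the core, 4 of 7 genes fell in skpo-1 (median log2 fold change -0.47) and all 7 in N2 (median -0.73). The gene with the lowest value in N2 was pas-2 (WBGene00003923, chromosome V, 10770368-10771351 in WBcel235). It had 137, 103, 115 and 122 CPM on E. faecalis against 194, 156 and 182 CPM on E. coli in skpo-1 mutants (log2 fold change -0.57 ± 0.19 (SE), edgeR adjusted p = 0.0495). In the wild type it had 119.5, 70.1 and 101 CPM on E. faecalis against 199, 251, 154 and 199 CPM on E. coli in N2 animals (log2 fold change -1.05 ± 0.20 (SE), edgeR adjusted p = 0.00188). Libraries on E. faecalis were below those on E. coli in both genotypes, with N2 on E. faecalis replicate 2 the lowest of all and N2 on E. coli replicate 2 the highest. The call in skpo-1 ended without 10 of the 14 libraries, with an adjusted p of up to 0.172 by edgeR's test, whereas that in N2 held without any single library.

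At the other end of the ring stood pas-6, with 178, 182, 198 and 178 CPM on E. faecalis against 279, 257 and 230.1 CPM on E. coli in skpo-1 mutants (log2 fold change -0.47 ± 0.12 (SE), edgeR adjusted p = 0.018). For N2 the values were 165, 156 and 179.6 CPM on E. faecalis against 227, 216, 228 and 242 CPM on E. coli (log2 fold change -0.45 ± 0.13 (SE), edgeR adjusted p = 0.0126). Neither pair of groups overlapped, and unlike pas-2 this gene was near its group's other values in N2 on E. coli replicate 2. Its call in N2 ended without N2 on E. faecalis replicate 2 (edgeR adjusted p = 0.0588) and that in skpo-1 ended when its E. coli replicate 1 or 2 or its E. faecalis replicate 2 was omitted (up to 0.1002 by the same test). The remaining alpha ring genes, pas-1, pas-3, pas-4, pas-5 and pas-7, had log2 fold changes of -0.73, -0.65, -0.93, -0.83 and -0.61 in N2. In skpo-1 pas-1 and pas-4 fell (log2 fold changes -0.52 and -0.58), and pas-3, pas-5 and pas-7 did not pass the test (-0.41, -0.46 and -0.33).

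The beta ring holds the active sites. Of its 7 genes 4 fell in skpo-1 (median log2 fold change -0.47), and all 7 fell in N2 (median -0.75). By orthology with yeast and mammals, pbs-1 encodes the caspase-like, pbs-2 the trypsin-like and pbs-5 the chymotrypsin-like subunit. The caspase-like gene pbs-1 had 193, 214, 231 and 192 CPM on E. faecalis against 325, 285 and 262 CPM on E. coli in skpo-1 mutants (log2 fold change -0.49 ± 0.14 (SE), edgeR adjusted p = 0.026). It had 186, 196 and 205 CPM on E. faecalis against 281, 231, 281 and 284 CPM on E. coli in N2 animals (log2 fold change -0.46 ± 0.14 (SE), edgeR adjusted p = 0.0193). The groups were apart in both genotypes, and pbs-1 had the highest level per length of coding sequence of all the subunits in N2 on E. coli. Its call ended without N2 on E. faecalis replicate 2 in N2 (edgeR adjusted p = 0.0601) and, in skpo-1, when E. coli replicate 1 or 2 or E. faecalis replicate 1, 2 or 4 was omitted (up to 0.133 by the same test).

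For pbs-2, the trypsin-like subunit, the libraries read 157, 161, 174 and 160.0 CPM on E. faecalis against 243, 201 and 217 CPM on E. coli in skpo-1 mutants (log2 fold change -0.43 ± 0.16 (SE), edgeR adjusted p = 0.0708). In the wild type they read 147, 133 and 171 CPM on E. faecalis against 230.5, 146, 209 and 228 CPM on E. coli (log2 fold change -0.44 ± 0.17 (SE), edgeR adjusted p = 0.0499). N2 on E. coli replicate 2 lay among the E. faecalis libraries here, and without it the log2 fold change in N2 was -0.59 (edgeR adjusted p = 0.00272) and the gene also passed in skpo-1 (0.00869 by the same test). The call in N2 was marginal and ended without 12 of the 14 libraries, with an adjusted p of up to 0.188 by edgeR's test.

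The chymotrypsin-like gene pbs-5 had 155, 148, 163 and 160.0 CPM on E. faecalis against 249.6, 226 and 227 CPM on E. coli in skpo-1 mutants (log2 fold change -0.58 ± 0.14 (SE), edgeR adjusted p = 0.0106). Its wild-type values were 142, 104 and 144 CPM on E. faecalis against 224, 204, 211 and 234 CPM on E. coli (log2 fold change -0.75 ± 0.14 (SE), edgeR adjusted p = 0.00166). Every library on E. faecalis was below every library on E. coli, and among the catalytic genes this one had the lowest log2 fold change in each genotype. The call in N2 held without any single library, and that in skpo-1 ended without skpo-1 on E. coli replicate 1 (edgeR adjusted p = 0.0614).

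The lowest value of the beta ring in N2 belonged to pbs-3, a structural subunit without an active site. It had 124, 119.3, 121 and 121 CPM on E. faecalis against 189.8, 183 and 169 CPM on E. coli in skpo-1 mutants (log2 fold change -0.58 ± 0.15 (SE), edgeR adjusted p = 0.0192). In N2 it had 110.5, 79.7 and 108 CPM on E. faecalis against 175, 238, 172 and 172 CPM on E. coli (log2 fold change -0.93 ± 0.16 (SE), edgeR adjusted p = 0.001). The groups did not overlap, and the mutant libraries on E. faecalis lay close together. Its call in N2 held without any single library, and that in skpo-1 ended when its E. coli replicate 1 or 2 or its E. faecalis replicate 2 was omitted (edgeR adjusted p up to 0.0857). The non-catalytic genes pbs-4, pbs-6 and pbs-7 had log2 fold changes of -0.79, -0.57 and -0.91 in N2, where all fell. In skpo-1 pbs-6 fell (log2 fold change -0.42), while pbs-4 and pbs-7 did not pass the test (-0.32 and -0.47).

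**Figure D2:**
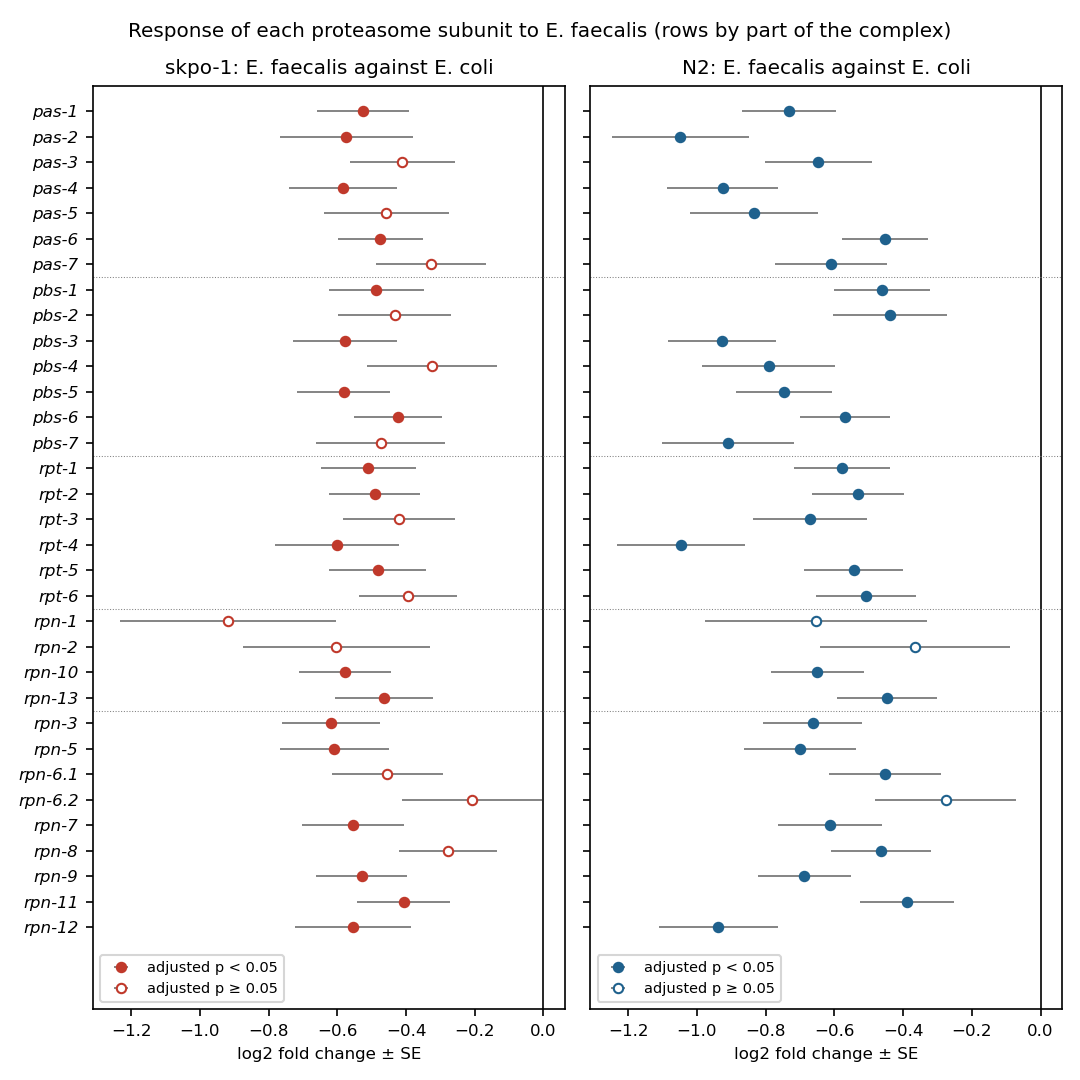
Log2 fold change of each subunit on E. faecalis relative to E. coli in skpo-1 (left) and N2 (right), with bars of 1 standard error and filled points for an adjusted p below 0.05 (edgeR). All 66 points lie below 0, between -1.05 and -0.21, and 20 are filled in skpo-1 and 30 in N2.

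The base ATPases form the ring that unfolds substrates and opens the gate of the core. Of these 6 genes, 4 fell in skpo-1 (median log2 fold change -0.49) and all 6 fell in N2 (median -0.56). The lowest in N2 was rpt-4 (WBGene00004504, chromosome II, 42207-46216 in WBcel235), with 161, 151, 167 and 150.5 CPM on E. faecalis against 264, 224 and 227 CPM on E. coli in skpo-1 mutants (log2 fold change -0.60 ± 0.18 (SE), edgeR adjusted p = 0.0315). In N2 it had 139.6, 88.3 and 154 CPM on E. faecalis against 244, 313, 224 and 270.2 CPM on E. coli (log2 fold change -1.05 ± 0.19 (SE), edgeR adjusted p = 0.00129). As for pas-2, the extremes were N2 on E. faecalis replicate 2 and N2 on E. coli replicate 2, and the groups did not overlap. The call in N2 held without any single library, and that in skpo-1 ended without 6 of the 14, all of them skpo-1 libraries (edgeR adjusted p up to 0.135). Exons of rpt-4 overlap those of rpoa-49 on the opposite strand over 103 bases.

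The ATPase with the highest log2 fold change in N2 was rpt-6, with 156, 155, 170.4 and 141 CPM on E. faecalis against 221, 195 and 196 CPM on E. coli in skpo-1 mutants (log2 fold change -0.39 ± 0.14 (SE), edgeR adjusted p = 0.0629). In N2 its values were 149, 118 and 160.4 CPM on E. faecalis against 197, 176, 212 and 224 CPM on E. coli (log2 fold change -0.51 ± 0.15 (SE), edgeR adjusted p = 0.015). The groups were apart in both genotypes although the test was passed in N2 only, and the difference between the genotypes' responses was 0.11 ± 0.20 (SE). Without N2 on E. faecalis replicate 2 the call in N2 ended (edgeR adjusted p = 0.0861), and when replicate 2 of N2 on E. coli was omitted the gene passed in skpo-1 (0.0170 by the same test). The log2 fold changes of rpt-1, rpt-2, rpt-3 and rpt-5 in N2 were -0.58, -0.53, -0.67 and -0.54. In skpo-1 rpt-1, rpt-2 and rpt-5 fell (-0.51, -0.49 and -0.48) and rpt-3 did not pass the test (-0.42).

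The non-ATPase subunits of the base showed the widest spread between libraries. The scaffold subunits rpn-1 and rpn-2 are the largest of the complex and dock ubiquitin-processing factors or the ubiquitin receptor rpn-13. The transcript of rpn-1 (WBGene00004458, chromosome IV, 6906420-6909913) read 326, 356, 411 and 198 CPM on E. faecalis against 596, 683 and 551 CPM on E. coli in skpo-1 mutants (log2 fold change -0.92 ± 0.32 (SE), edgeR adjusted p = 0.0526). It read 382, 286 and 344 CPM on E. faecalis against 626, 217, 617 and 663 CPM on E. coli in N2 animals (log2 fold change -0.65 ± 0.32 (SE), edgeR adjusted p = 0.119). A single library in each genotype stood apart, N2 on E. coli replicate 2 and skpo-1 on E. faecalis replicate 4. Genes with long transcripts had median log2 differences of -0.55 and -0.19 in these libraries. Without N2 on E. coli replicate 2 the log2 fold change in N2 was -0.93 and passed (edgeR adjusted p = 0.00414), and omission of replicate 4 of skpo-1 on E. faecalis gave -0.74 in skpo-1. In skpo-1 the test was also passed without N2 on E. coli replicate 2 or 4 (0.00337 and 0.0487 by the same test).

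The other scaffold gene, rpn-2, had 386, 394, 431 and 319 CPM on E. faecalis against 575, 601 and 566 CPM on E. coli in skpo-1 mutants (log2 fold change -0.60 ± 0.27 (SE), edgeR adjusted p = 0.119). In N2 it had 418, 359 and 430.4 CPM on E. faecalis against 619.9, 222, 547 and 683 CPM on E. coli (log2 fold change -0.36 ± 0.28 (SE), edgeR adjusted p = 0.305). The pattern was that of rpn-1: N2 on E. coli replicate 2 was below all E. faecalis libraries of N2, and the other 3 libraries of that group were above them. Without that library rpn-2 fell in skpo-1 (log2 fold change -0.62, edgeR adjusted p = 0.00319) and in N2 (-0.64, 0.00338 by the same test).

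The ubiquitin receptors rpn-10 and rpn-13 capture tagged proteins. For rpn-10 there were 99.9, 102, 109.7 and 97.4 CPM on E. faecalis against 163, 143 and 152 CPM on E. coli in skpo-1 mutants (log2 fold change -0.58 ± 0.13 (SE), edgeR adjusted p = 0.00989). There were 101, 85.3 and 104 CPM on E. faecalis against 164, 129, 142 and 172 CPM on E. coli in N2 animals (log2 fold change -0.65 ± 0.14 (SE), edgeR adjusted p = 0.00307). Libraries on E. faecalis were below those on E. coli throughout, and the calls held without any single library except that in skpo-1 without skpo-1 on E. coli replicate 1 (edgeR adjusted p = 0.0591). For rpn-13 the values were 146, 152, 165 and 148 CPM on E. faecalis against 220.2, 220.3 and 190.4 CPM on E. coli in skpo-1 mutants (log2 fold change -0.46 ± 0.14 (SE), edgeR adjusted p = 0.0357). The corresponding wild-type values were 142, 139 and 150.2 CPM on E. faecalis against 207, 149.6, 215 and 212 CPM on E. coli (log2 fold change -0.45 ± 0.14 (SE), edgeR adjusted p = 0.0263). In N2 on E. coli replicate 2 the level of rpn-13 was within the range of the E. faecalis libraries, so the N2 groups touched, whereas the mutant groups did not. The rpn-13 call ended in N2 when E. coli replicate 3 or 4 or E. faecalis replicate 2 or 3 was omitted (edgeR adjusted p up to 0.0912). In skpo-1 it ended when E. coli replicate 1 or 2 or E. faecalis replicate 1, 2 or 4 was omitted (up to 0.132 by edgeR's adjusted p).

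In the lid, which removes ubiquitin chains before degradation, 6 of 9 genes fell in skpo-1 (median log2 fold change -0.53) and 8 of 9 in N2 (median -0.61). The deubiquitinase is encoded by rpn-11, which had 179.9, 185, 204 and 193 CPM on E. faecalis against 271, 243 and 242 CPM on E. coli in skpo-1 mutants (log2 fold change -0.41 ± 0.14 (SE), edgeR adjusted p = 0.0469). It had 167, 179.5 and 203 CPM on E. faecalis against 257, 206, 229 and 267 CPM on E. coli in N2 animals (log2 fold change -0.39 ± 0.14 (SE), edgeR adjusted p = 0.0367). The groups were apart in both genotypes, by a narrow gap in N2. The calls were among the weakest: that in skpo-1 ended without 9 of the 14 libraries (edgeR adjusted p up to 0.176) and that in N2 without 6 (up to 0.107 by the same test).

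The lid gene with the lowest log2 fold change in N2 was rpn-12, a small structural subunit, with 90.0, 80.2, 90.2 and 90.0 CPM on E. faecalis against 134, 118.9 and 133 CPM on E. coli in skpo-1 mutants (log2 fold change -0.56 ± 0.17 (SE), edgeR adjusted p = 0.0337). In N2 the values were 87.1, 60.2 and 81.6 CPM on E. faecalis against 132, 192, 120.2 and 140.3 CPM on E. coli (log2 fold change -0.94 ± 0.17 (SE), edgeR adjusted p = 0.00158). No library on E. faecalis reached the level of any library on E. coli. The call in N2 held without any single library, and that in skpo-1 ended without any 1 of the 7 skpo-1 libraries (edgeR adjusted p up to 0.121).

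The paralogs rpn-6.1 and rpn-6.2 encode versions of a lid subunit that braces the regulatory particle against the core, and a raised level of rpn-6.1 is known to increase proteasome activity in C. elegans. For rpn-6.1 there were 138, 135, 155 and 151 CPM on E. faecalis against 198, 206 and 190.2 CPM on E. coli in skpo-1 mutants (log2 fold change -0.45 ± 0.16 (SE), edgeR adjusted p = 0.0581). In N2 it had 137, 125 and 146 CPM on E. faecalis against 201, 129, 198 and 217 CPM on E. coli (log2 fold change -0.45 ± 0.16 (SE), edgeR adjusted p = 0.0413). N2 on E. coli replicate 2 was again among the E. faecalis libraries, and without it the log2 fold change in N2 was -0.61 (edgeR adjusted p = 0.000973) and the gene passed in skpo-1 (0.00298 by the same test). The call in N2 ended without 10 of the 14 libraries (edgeR adjusted p up to 0.147).

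Its paralog rpn-6.2 (WBGene00010309, chromosome III, 8999817-9001999) was the least abundant member and, in the main fit, the least changed. It had 17.6, 17.2, 18.8 and 15.8 CPM on E. faecalis against 22.7, 18.3 and 18.9 CPM on E. coli in skpo-1 mutants (log2 fold change -0.21 ± 0.20 (SE), edgeR adjusted p = 0.467). The wild-type values were 15.6, 14.2 and 24.7 CPM on E. faecalis against 20.3, 27.4, 20.3 and 19.9 CPM on E. coli (log2 fold change -0.28 ± 0.20 (SE), edgeR adjusted p = 0.292). Groups overlapped in both genotypes, and N2 on E. faecalis replicate 3 was above all but 1 of the N2 libraries on E. coli. No omission of a single library made rpn-6.2 pass the test (edgeR adjusted p 0.318 or more in skpo-1 and 0.0511 or more in N2), and with library size as the only scaling its log2 fold change in skpo-1 was 0.14. With an offset that follows transcript length it passed in N2 (log2 fold change -0.60, edgeR adjusted p = 0.0168). There rpn-2 was the least changed in N2 (-0.59). In CPM, not divided by length, rpn-6.2 made up 8.16% to 17.5% of the paralog pair over the 14 libraries. The paralogs are similar in sequence, and how the read assignment divided reads between them was not tested.

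The other lid genes, rpn-3, rpn-5, rpn-7, rpn-8 and rpn-9, all fell in N2, with log2 fold changes of -0.66, -0.70, -0.61, -0.46 and -0.69. In skpo-1 rpn-3, rpn-5, rpn-7 and rpn-9 fell (-0.62, -0.61, -0.55 and -0.53), and rpn-8, the inactive partner of the deubiquitinase, did not pass the test (-0.28). Exons of rpn-7 overlap those of nemt-1 over 394 bases, the longest overlap with another gene among the subunits, and those of pbs-4 and pbs-7 overlap mrrf-1 and K07A12.5 over 73 and 70 bases. Counts of these genes may include reads of the neighbour.

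**Figure D3:**
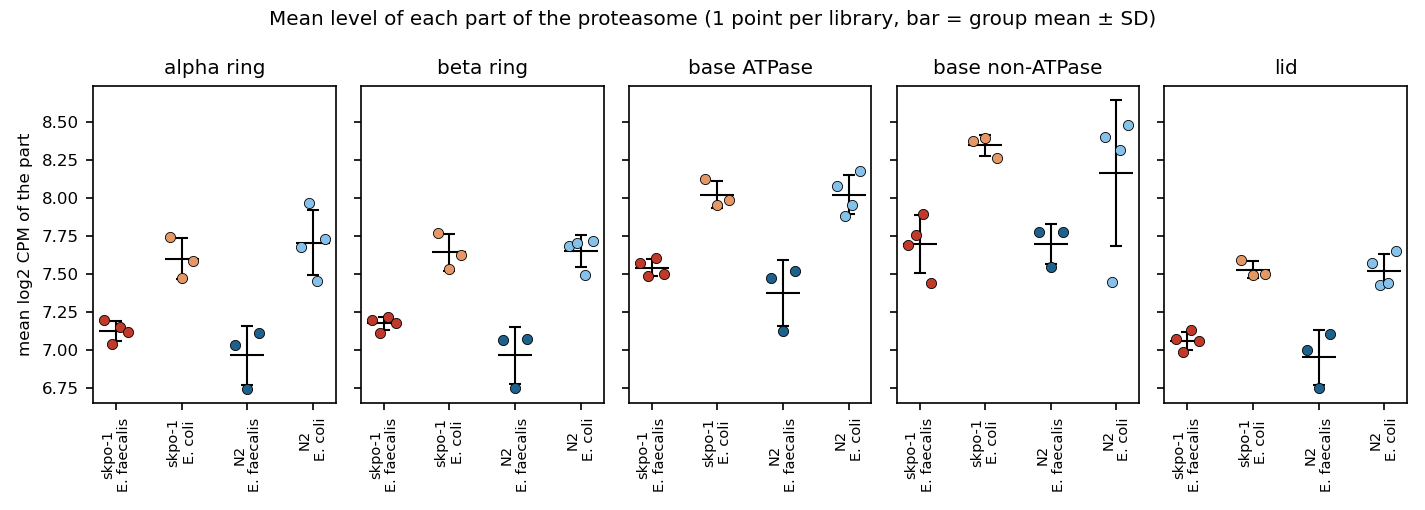
Mean log2 CPM of each part of the proteasome in each library (points), with group means and bars of 1 SD. Every library on E. faecalis lay below every library on E. coli of the same genotype, except that in the base non-ATPase subunits N2 on E. coli replicate 2 lay below the N2 libraries on E. faecalis.

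The order of the parts was not stable. In N2 the core genes had a median log2 fold change of -0.74 and the genes of the regulatory particle -0.58, but without N2 on E. coli replicate 2 these were -0.65 and -0.69. In skpo-1 core and regulatory genes had medians of -0.47 and -0.51. Core genes have shorter coding sequences than most genes of the regulatory particle. In N2 on E. coli replicate 2, the 16 subunits with a coding sequence under 1000 bases were 0.35 log2 units above the other libraries of their group at the median, and the 17 longer subunits had a median difference of -0.30. The short subunits were the core genes with rpn-11 and rpn-12, nearly the same split as that by part. Across N2 animals the median log2 fold change was -0.74 in short and -0.58 in long subunits with this library, and -0.65 and -0.69 without it. These medians repeat those of core and regulatory genes, and length and part cannot be told apart here. A further fit left out both N2 on E. coli replicate 2 and skpo-1 on E. faecalis replicate 4. In it 27 subunits fell in skpo-1 (median -0.50, beside 15.7% of all genes) and 32 in N2 (median -0.66, beside 22.9%).

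**Figure D4:**
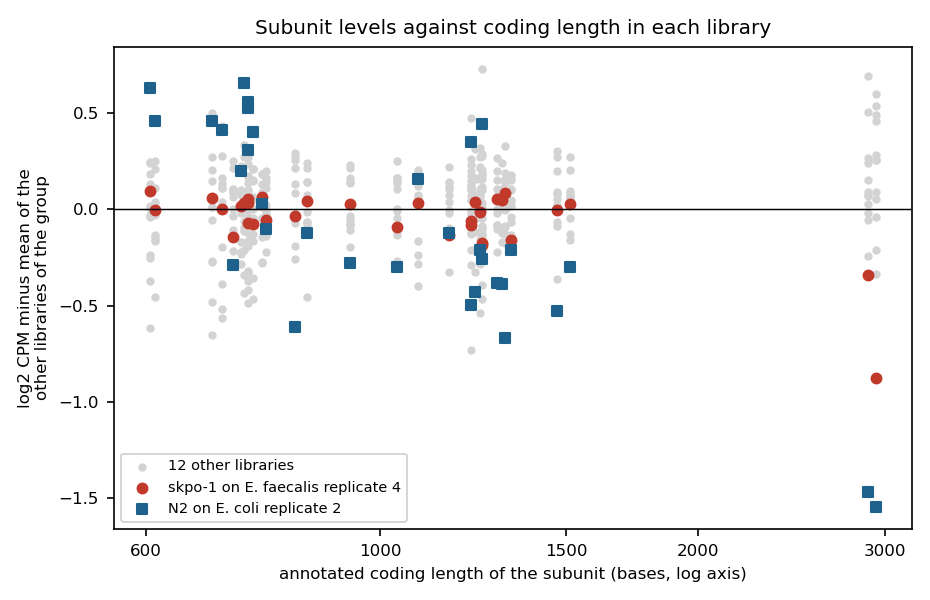
Difference of each subunit's log2 CPM from the mean of the other libraries of its group, against annotated coding length (log axis), for the 14 libraries. In N2 on E. coli replicate 2 most short subunits lay above 0 and rpn-1 and rpn-2, the longest, lay far below it, and in skpo-1 on E. faecalis replicate 4 these genes were the lowest.

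Levels per length differed between the subunits by a few fold. In N2 on E. coli, CPM per kilobase of coding sequence averaged 371 ± 35.5 for pbs-1, 371 ± 95.8 for pas-5 and 309 ± 53.0 for pbs-3 (SD, n = 4 each), the highest, and 142 ± 29.6 for rpn-6.1, 146 ± 18.9 for rpn-10 and 17.6 ± 2.90 for rpn-6.2, the lowest. In 28 of 32 pairs of neighbours in this order the means differed by less than the SD of the lower one, and the gap between rpn-6.1 and rpn-6.2 was the widest. Leaving rpn-6.2 aside, the highest subunit was 2.37 to 6.89 times the lowest within a library, and pbs-1 was the highest in 13 of 14 libraries, N2 on E. coli replicate 2 being the exception. Median levels per kilobase were higher for the core than for the base ATPases in every library, for example 179 against 143 in N2 on E. faecalis replicate 1. The order in N2 on E. coli changed with the length used. Per kilobase of transcript pbs-1 and pas-5 stayed highest, but pbs-3 moved from rank 3 to 7, pas-2 from 5 to 3 and rpn-7 from 12 to 27.

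The next question was whether the skpo-1 deletion changed subunit expression. On E. faecalis, 0 of 33 subunits differed between skpo-1 and N2 by edgeR's test at an adjusted p below 0.05, beside 0.115% of all genes, and 0 at an unadjusted p below 0.05, beside 7.74% (by DESeq2's Wald test 0 and 1). The median log2 fold change was 0.12, with a range of -0.07 to 0.30 and 3 negative values, beside 52.9% negative over all genes. The smallest p belonged to pbs-5, the chymotrypsin-like subunit. It had 155, 148, 163 and 160.0 CPM in skpo-1 against 142, 104 and 144 CPM in N2 (log2 fold change 0.27 ± 0.14 (SE), edgeR adjusted p = 0.665). Every skpo-1 library was above every N2 library, by a narrow gap. Groups were separate in that direction for 4 of 33 subunits, beside 5.21% of all genes, and in the other for 0, beside 3.76%.

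On E. coli, 0 of 33 subunits differed between the genotypes, beside 0.65% of all genes, and 0 at an unadjusted p below 0.05, beside 9.4% (edgeR, and 0 and 0 by DESeq2). Log2 fold changes ranged from -0.25 to 0.20 with a median of 0.01, and 14 were negative, beside 54.2% of all genes. The smallest p was that of pas-5, an alpha ring gene. It had 262, 209 and 224 CPM in skpo-1 against 255, 379, 215 and 254 CPM in N2 (log2 fold change -0.25 ± 0.18 (SE), edgeR adjusted p = 0.688). The groups overlapped, the high value of N2 being replicate 2, without which the log2 fold change was -0.07.

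The difference between the genotypes' responses was tested as an interaction. None of the 33 subunits passed, and 0 did so at an unadjusted p below 0.05, beside 7.75% of all genes (edgeR, and 0 and 0 by DESeq2). Of all genes tested 0% passed at an adjusted p below 0.05. The differences, skpo-1 minus N2, had a median of 0.11 on the log2 scale and ranged from -0.26 to 0.47. The smallest p was that of rpt-4, with a difference of 0.44 ± 0.26 (SE) between its log2 fold changes of -0.60 in skpo-1 and -1.05 in N2 (edgeR adjusted p = 0.665), and without N2 on E. faecalis replicate 2 that difference was 0.24. At this replication a smaller fall in the mutant was thus not distinguishable from an equal one. Both responses were called lower in 20 of 33 subunits, beside 5.25% of all genes. In 26 subunits the E. faecalis libraries were all below the E. coli libraries in both genotypes, beside 9.15% of all genes.

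Genes that work with the proteasome were examined from lists, and their counts are to be read beside the share of all genes that fell, 6.99% in skpo-1 and 14.5% in N2, and that of the 1671 genes at the levels of the subunits, 22.8% in skpo-1 and 26.2% in N2. Of 7 tested partners and activators, 2 fell in skpo-1 (median log2 fold change -0.41) and 6 in N2 (median -0.67). The proteasome-bound deubiquitinases usp-14 and ubh-4 fell in N2 (log2 fold change -0.67 ± 0.14 (SE), edgeR adjusted p = 0.00272 for usp-14, and log2 fold change -0.81 ± 0.18 (SE), edgeR adjusted p = 0.00456 for ubh-4). The shuttle factor rad-23 fell in both genotypes (log2 fold change -0.58 ± 0.16 (SE), edgeR adjusted p = 0.0201 in skpo-1, and log2 fold change -0.53 ± 0.16 (SE), edgeR adjusted p = 0.0183 in N2). The gene usp-14 fell in skpo-1 as well (log2 fold change -0.53 ± 0.13 (SE), edgeR adjusted p = 0.0153), and ubh-4 did not pass there (log2 fold change -0.41 ± 0.18 (SE), edgeR adjusted p = 0.108).

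Of the rest of that list, the activator gene psme-3, the assembly chaperone gene psmd-9 and aip-1 fell in N2, with log2 fold changes of -0.69, -1.05 and -0.48 there, and did not pass in skpo-1 (-0.45, -0.18 and -0.31). The small lid component dss-1 passed in neither genotype (log2 fold change -0.10 in skpo-1 and -0.37 in N2). None of these genes differed between the genotypes' responses by edgeR's test.

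Among 6 genes for the control of proteasome transcription, 0 fell in skpo-1 and 1 in N2. This was ddi-1, the protease that matures SKN-1A (log2 fold change -0.56 ± 0.13 (SE), edgeR adjusted p = 0.00542 in N2). The transcript of skn-1 itself did not pass (log2 fold change -0.53 ± 0.27 (SE), edgeR adjusted p = 0.158 in skpo-1, and log2 fold change -0.24 ± 0.27 (SE), edgeR adjusted p = 0.497 in N2). Nor did the glycanase gene png-1 (log2 fold change -0.19 in skpo-1 and -0.07 in N2), the ER degradation genes sel-1 (-0.27 in skpo-1 and -0.32 in N2) and sel-11 (-0.39 in skpo-1 and -0.16 in N2), or wdr-23, which encodes a negative regulator of SKN-1 (0.23 in skpo-1 and 0.34 in N2).

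In the ubiquitin and unfolding list 5 of 11 genes fell in skpo-1 and 6 of 11 in N2, with median log2 fold changes of -0.45 and -0.60. The segregase gene cdc-48.1, which extracts ubiquitinated proteins from complexes, was called in each genotype (log2 fold change -0.97 ± 0.28 (SE), edgeR adjusted p = 0.0268 in skpo-1, and log2 fold change -0.86 ± 0.29 (SE), edgeR adjusted p = 0.0288 in N2). Its cofactor genes npl-4.1, ufd-2 and ufd-3 also fell in both (log2 fold changes -0.44, -0.63 and -0.61 in skpo-1, and -0.66, -0.67 and -0.51 in N2). Calls in a single genotype were those of cdc-48.2 in skpo-1 (-0.69) and of ufd-1 and npl-4.2 in N2 (-0.40 and -0.70). The other 4 genes of the list passed in neither genotype, with log2 fold changes of -0.76 to -0.02 in skpo-1 and -0.61 to -0.15 in N2.

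Other large complexes gave a point of comparison. Of 8 genes of the cytosolic chaperonin, which folds actin and tubulin, 5 fell in skpo-1 (median log2 fold change -0.57) and 2 in N2 (median -0.45). The share in N2 was close to that of genes at the levels of the subunits. The calls were cct-1, cct-2, cct-4, cct-5 and cct-8 in skpo-1 (-0.64, -0.72, -0.49, -0.54 and -0.85) and cct-4 and cct-5 in N2 (-0.46 and -0.55). The genes cct-3, cct-6 and cct-7 passed in neither (-0.53, -0.44 and -0.60 in skpo-1, and -0.34, -0.31 and -0.33 in N2). Among 81 genes for cytosolic ribosomal proteins, by contrast, 0 fell and 2 rose in skpo-1 and 1 fell and 3 rose in N2, with medians of -0.09 and -0.06. Those that rose were rpl-11.2 and rpl-25.1 in skpo-1 (log2 fold changes 0.61 and 0.66) and in N2 (0.55 and 0.90), with rpl-42 also in N2 (1.84), and rpl-41.1 fell in N2 (-0.98). The ribosomal medians depended on processing. With an offset that follows transcript length they were -0.51 in skpo-1 and -0.41 in N2, beside -0.78 and -0.92 for the subunits. All genes then stood at -0.12 and -0.24. With library size as the only scaling the ribosomal medians were 0.27 and 0.17, beside -0.13 and -0.40 for the subunits.

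**Figure D5:**
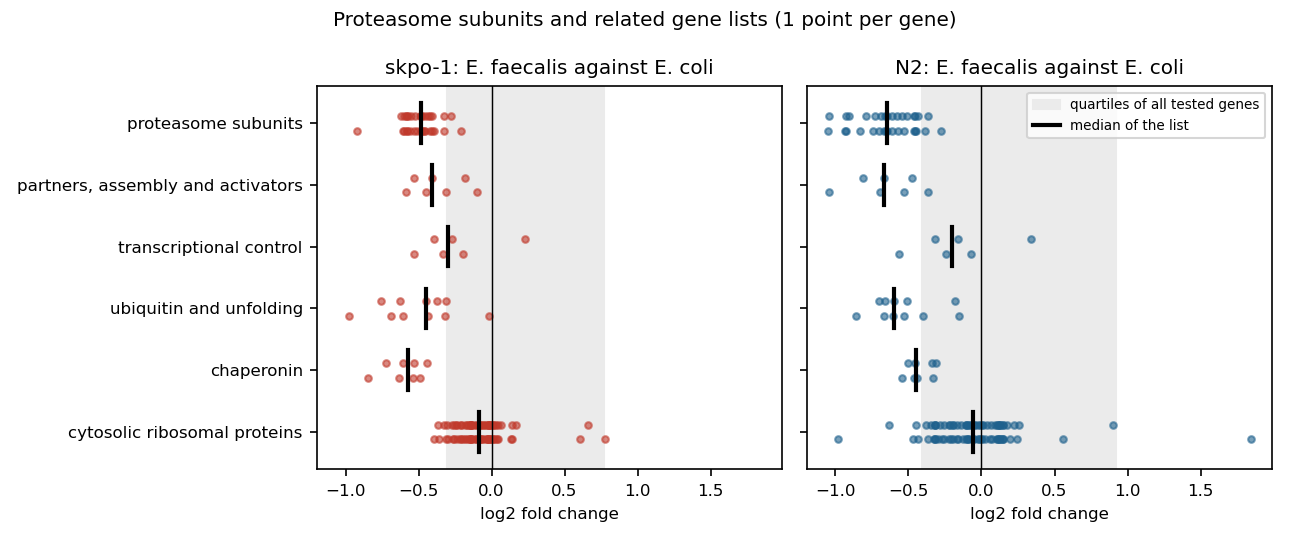
Log2 fold changes on E. faecalis relative to E. coli for the 33 subunits and 5 related lists in skpo-1 (left) and N2 (right), 1 point per gene, with list medians as bars and the quartiles of all tested genes shaded. The subunits had medians of -0.49 and -0.65, and the ribosomal protein genes had medians of -0.09 and -0.06.

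Summed levels of tissue markers were compared between the same groups. All intestine, muscle, hypodermis, neuron, germline and oocyte markers (4, 3, 3, 3, 3 and 3 genes) had counts in every library, and 1 or 2 of 33 sperm genes were at 0 in every library of a group. Oocyte markers were 1861 to 2682 CPM on E. faecalis against 2624 to 3711 CPM on E. coli in skpo-1, and 1557 to 2556 CPM on E. faecalis against 1460 to 3539 CPM on E. coli in N2. Germline markers were 395 to 922 CPM on E. faecalis against 1086 to 1220 CPM on E. coli in skpo-1, and 831 to 1038 CPM on E. faecalis against 868 to 1300 CPM on E. coli in N2. The overlap in N2 came from E. coli replicate 2 alone, as the other 3 libraries on E. coli (3238 to 3539 CPM for oocyte and 1179 to 1300 CPM for germline markers) were above every N2 library on E. faecalis. Muscle markers were 480 to 2171 CPM on E. faecalis against 3311 to 4385 CPM on E. coli in skpo-1, and 1861 to 2410 CPM on E. faecalis against 794 to 3899 CPM on E. coli in N2, where replicate 2 on E. coli was again the low one. In skpo-1 on E. faecalis, replicate 4 alone gave the low end of the oocyte, germline and muscle sums. The other libraries of that group had 2246 to 2682, 745 to 922 and 1718 to 2171 CPM. Gene by gene, no muscle or oocyte marker passed edgeR's test in either genotype, and myo-3 was positive in N2 (log2 fold change 0.60). Of the germline markers, only glh-1 in skpo-1 (-0.84) and him-3 in N2 (-0.51) passed. All other values of these markers were negative.

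Other tissues did not run the same way. Hypodermis markers were 176 to 386 CPM on E. faecalis against 813 to 1380 CPM on E. coli in skpo-1, and 171 to 445 CPM on E. faecalis against 682 to 1481 CPM on E. coli in N2. This lower sum was that of col-19, a collagen gene of the adult cuticle, with log2 fold changes of -1.99 in skpo-1 and -2.04 in N2 (edgeR adjusted p = 0.00261 and 0.00174), while dpy-7 (1.49 in skpo-1 and 1.19 in N2) and rol-6 (0.53 in skpo-1 and 1.59 in N2) had positive values that did not pass the test. Neuron markers were 144 to 161 CPM on E. faecalis against 117 to 132 CPM on E. coli in skpo-1, and 141 to 157 CPM on E. faecalis against 122 to 176 CPM on E. coli in N2. The sums were thus higher without overlap in the mutant and overlapped in N2. By gene, rab-3 rose in both genotypes (log2 fold change 0.92 in skpo-1 and 1.19 in N2). The genes snb-1 (0.22 in skpo-1 and 0.04 in N2) and unc-119 (-0.03 in skpo-1 and -0.45 in N2) did not pass the test. Intestine markers were 20164 to 75368 CPM on E. faecalis against 63281 to 86219 CPM on E. coli in skpo-1, and 23127 to 80833 CPM on E. faecalis against 16438 to 82933 CPM on E. coli in N2, and the groups overlapped. Of the intestine markers, ges-1 rose in both genotypes (log2 fold change 0.60 in skpo-1 and 0.47 in N2), and elt-2 rose in N2 (0.57) and did not pass in skpo-1 (0.51). The yolk genes vit-2 (-0.17 in skpo-1 and 0.08 in N2) and vit-6 (-0.66 in skpo-1 and -0.63 in N2) passed in neither. The sperm list gave 97.6 to 288 CPM on E. faecalis against 114 to 376 CPM on E. coli in skpo-1, and 212 to 549 CPM on E. faecalis against 84.8 to 145 CPM on E. coli in N2. In skpo-1 the lowest sum on E. faecalis and the highest on E. coli were those of replicate 3. The other skpo-1 libraries had 241 to 288 CPM on E. faecalis and 114 to 161 CPM on E. coli. The part of these tissues in the lower subunit levels was not tested.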

How the data were processed

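Total RNA of whole animals was sequenced as read pairs. The authors trimmed reads with Trimmomatic 0.36, assigned them to the WBcel235 transcriptome with Salmon 1.2.1 and summed them per gene, and the table they deposited holds these estimated counts per gene, not normalized. A second deposited table holds the same genes as a normalized signal that the authors scaled by DESeq2 size factors.

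The estimated counts were rounded to whole numbers and fitted with edgeR 4.0.16 in R 4.3.3 (quasi-likelihood F test, TMM scaling, 1 coefficient per group over 14 libraries) after filterByExpr with a minimum count of 10 and minimum total of 15, which left 15685 genes. The Benjamini-Hochberg adjustment covered all of them, and a gene was called at an adjusted p below 0.05. Standard errors were the absolute log2 fold change over the square root of F. CPM are counts scaled to 1000000 of TMM-scaled library size. Such values are relative to the other RNA of a library, and Salmon's assignment can divide reads between similar genes. The labels call the libraries biological replicates. The script was checked on simulated counts.

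The members and lists were chosen with earlier results of these data known, so lists are described by counts and medians without a set test. Subunits with values in every library were chosen by rule: the catalytic subunits, the deubiquitinase, the ubiquitin receptors, the rpn-6 paralogs, the extremes of each part in N2 and the smallest p of each genotype comparison. Genes of other lists were named when called or when the list had 8 or fewer tested members. Of the listed partners, 7 of 8 symbols were matched. The alternatives were median-of-ratios scaling, library size alone, DESeq2 1.42.0 (Wald test), no filter, a filter of 5 CPM in 3 libraries, fits on the compared groups alone, the replicate number as a block, limma 3.58.1 on log2(normalized signal + 1), and each library left out. Further alternatives were chosen after seeing the data. They were leaving out both N2 on E. coli replicate 2 and skpo-1 on E. faecalis replicate 4, and an offset that follows transcript length. Positions and lengths are from the Ensembl annotation of WBcel235.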

Additional observations from a re-analysis of the deposited data

Results flagged for a closer look

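Within groups of 4 libraries, 8 of 66 sets of subunit values had a library far from the other 3 by Dixon's criterion, which is met by chance in about 1 in 20 sets. Of these, 5 were in N2 on E. coli replicate 2, the library in which short genes were high and long genes low. There pbs-1 had 231 CPM (281 to 284 in the others), rpn-1 had 217 CPM (617 to 663) and rpn-13 had 149.6 CPM (207 to 215), all low, while pbs-3 had 238 CPM (172 to 175) and rpn-6.2 had 27.4 CPM (19.9 to 20.3), both high. Of these, pbs-1 and rpn-6.2, with coding sequences of 726 and 1248 bases, ran against the shift with length. The other 3 were in skpo-1 on E. faecalis replicate 2, where pas-5 had 161 CPM (171 to 172), rpn-8 had 135 CPM (149 to 152) and rpn-12 had 80.2 CPM (90.0 to 90.2), all low. Subunits of a library share its scaling, so these sets are not independent. What made these libraries differ was not tested.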

How the results depend on the processing

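Under 23 of 24 alternatives all 33 subunits kept a negative log2 fold change in both genotypes, and under all 24 each stayed below the median of all genes. The exception was library size as the only scaling, which moved the median of all genes to 0.48 in skpo-1 and 0.26 in N2: the subunit medians were then -0.13 and -0.40, with 0 and 12 subunits lower, and rpn-6.2 in skpo-1 was reversed at 0.14, as 4 subunits were above 0 there. Relative to all genes these medians were -0.61 and -0.66, beside -0.60 and -0.68 with TMM. Genes at the levels of the subunits had medians of -0.43 in skpo-1 and -0.30 in N2 with TMM. No comparison with them is given under the alternatives. With the transcript-length offset the subunit medians were -0.78 in skpo-1 and -0.92 in N2, with 31 and 33 lower, beside 23.3% and 35.1% of all genes. The median of all genes moved to -0.12 and -0.24, and 14 subunits in N2 were at least 2-fold lower. The stricter filter left 12 lower in skpo-1, and none at least 2-fold lower in N2, with medians of -0.36 and -0.45 relative to the genes it kept, and fits on the compared groups alone gave 30 in skpo-1 and 13 in N2 (16.7% and 5.19% of all genes). DESeq2's Wald test gave 29 in skpo-1 and 30 in N2 (11.3% and 17.2%).

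With single libraries left out, the number lower was 1 to 30 in skpo-1 and 20 to 32 in N2, the number at least 2-fold lower in N2 was 0 to 6, and the medians were -0.54 to -0.45 in skpo-1 and -0.70 to -0.52 in N2. Shares of all genes are not given for these omissions, library size scaling, the stricter filter or 2-fold counts under an alternative. The genotype comparisons and the difference between responses called 0 subunits under each alternative run, where fits on the compared groups alone give no difference between responses. Replicate numbers did not pair the libraries: of 19 same-numbered pairs 9 correlated above 0.1 (r from -0.63 to 0.28), and 3 of 14 libraries correlated best with their own number. With the replicate block 9 subunits were lower in skpo-1 and 24 in N2 (3.58% and 10.7% of all genes). The causes of these changes were not tested. Depth did not limit the subunits, since 32 of them had 1436 counts or more in every library, but 3 or 4 libraries per group limit the detectable difference between genotypes.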
